A study of Mus musculus with 12 samples.

Results

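The averaged effect of electrical stimulation (ES) was measured over all 12 of the 12 bulk RNA-seq libraries of the series, 6 from stimulated and 6 from unstimulated mice. All libraries came from trigeminal ganglia of female C57BL/6J mice aged 8 weeks, in 4 groups of 3. ES_injury mice had a 1.5 mm keratectomy of a random eye and ES over the following 2 weeks, and they are set against injury mice, which had the keratectomy without ES and were taken at 2 weeks. ES_no_injury mice had ES without a keratectomy, and they are set against untreated control mice. ES was a biphasic ramp waveform of 300 µA at 20 Hz for 4 minutes a day on 14 days, with the cathode on the skin over the orbit and the anode on the abdomen. Isoflurane was given with every stimulation session. Mice with a keratectomy had also received ketamine, xylazine and the analgesic Ethiqa XR, in both the ES_injury and the injury group. Isoflurane and current cannot be told apart here, because no library is labelled as a sham. The number of mice and the side behind each library are not in the labels, and p-values therefore reflect library-to-library spread, which may be technical. The averaged effect is the mean of 2 log2 fold changes, ES_injury over injury and ES_no_injury over control. Stress genes came from 15 lists, chosen with earlier results of these data known, and held 379 genes, of which 120 could be named by position and 112 were tested. A gene was said to move alike when its averaged effect was called and 3 further conditions held: the same sign in both states, an unadjusted p under 0.05 in each state, and an unadjusted p of at least 0.05 for the difference between the states. Moving alike thus means that no difference between the states was detected, not that the 2 effects were equal.

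The trigeminal ganglion holds the cell bodies of the sensory neurons that supply the cornea and the face, wrapped in satellite glia and bounded by meninges. Cells meet stress through several gene programmes. In the integrated stress response, kinases slow translation by phosphorylating eIF2-alpha, and the transcription factor ATF4 then raises genes of amino acid import and synthesis. Immediate early genes are transcribed within minutes of depolarisation, growth factor signalling or handling, and heat shock, unfolded protein and antioxidant genes restore protein folding and redox balance.

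Depth was 8404926 to 8839497 counted reads per ES_injury library against 8398537 to 10751547 per injury library, and 7952798 to 10442385 per ES_no_injury library against 8396501 to 8930766 per control library. Levels are given as CPM, counts scaled to a common library total after TMM, which does not correct for gene length, so levels are compared between libraries and not between genes. Of 13 sensory neuron markers, 4 were tested and all were abundant, with Nefm, a neurofilament subunit, at 949 to 1300.1 CPM in ES_injury, 663 to 971 CPM in injury, 1647 to 1808 CPM in ES_no_injury and 713 to 727 CPM in control libraries. The share of counts in mitochondrial genes was lower in every stimulated library, at 16.5% to 17.3% in ES_injury against 19.8% to 22.6% in injury, and at 10.4% to 14.6% in ES_no_injury against 22.8% to 28.7% in control. Replicate 2 of ES_injury stood apart from its group, with 5531 CPM summed over the 4 sensory neuron markers against 10249 and 9231 CPM in the other replicates. Counts for the averaged effect and for genes moving alike are also given without it.

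The averaged ES effect was called for 2017 of 13053 tested intervals (15.5%), 1153 higher (8.83%) and 864 lower (6.62%) (edgeR quasi-likelihood test, Benjamini-Hochberg adjusted p under 0.05). With upper quartile scaling in place of TMM, the split was 909 higher and 1050 lower. Of the 4769 intervals with a gene name, 825 were called (17.3%), 421 higher (8.83%) and 404 lower (8.47%). More genes were called in uninjured than in injured mice. In uninjured mice alone 1539 named genes were called (32.3%), 881 higher (18.5%) and 658 lower (13.8%), and in injured mice alone 100 (2.1%), 2 higher (0.0419%) and 98 lower (2.05%). The count in injured mice depended on single libraries: over all intervals it was 201, 5 higher and 196 lower, against 5 without replicate 3 of ES_injury, 44 without replicate 1 and 91 without replicate 3 of injury, 116 without replicate 1 of ES_no_injury, 338 (82 higher) without replicate 1 of ES_injury, and 243 (31 higher) without replicate 2 of ES_injury. Of the 825 genes, 724 had the larger estimate in uninjured mice, 764 had an unadjusted p under 0.05 there, and 214 had one in injured mice. The 2 states share no library, and over 13053 intervals their log2 fold changes had a Spearman correlation of -0.06 and the same sign in 47.4%, given as a description. The difference between the states was itself called for 971 of the 4769 named genes (20.4%), above 0 for 7.97% and below 0 for 12.4%, with 405 of them among the 825. Over all tested intervals that share was 19.2%, with 896 above 0 and 1611 below, and upper quartile scaling turned this split to 1396 above and 852 below. In uninjured mice the same scaling turned a split of 2371 higher and 1525 lower intervals to 1674 higher and 2088 lower. Genes with the same sign in both states made up 648 of the 825, and 177 had opposite signs. Without replicate 2 of ES_injury the averaged effect was called for 3164 intervals, and without replicate 3 of ES_injury for 1145. The median GC content of the exons was 56.0% for the intervals called higher, 43.0% for those called lower and 50% for all tested, and with a GC and length correction 972 intervals were called. The log2 fold change had a Spearman correlation with exon GC content of 0.49 in uninjured mice, -0.03 in injured mice and 0.41 on average. The part of GC content in the calls, and in the difference between the states, was not tested beyond that correction.

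**Figure D1:**
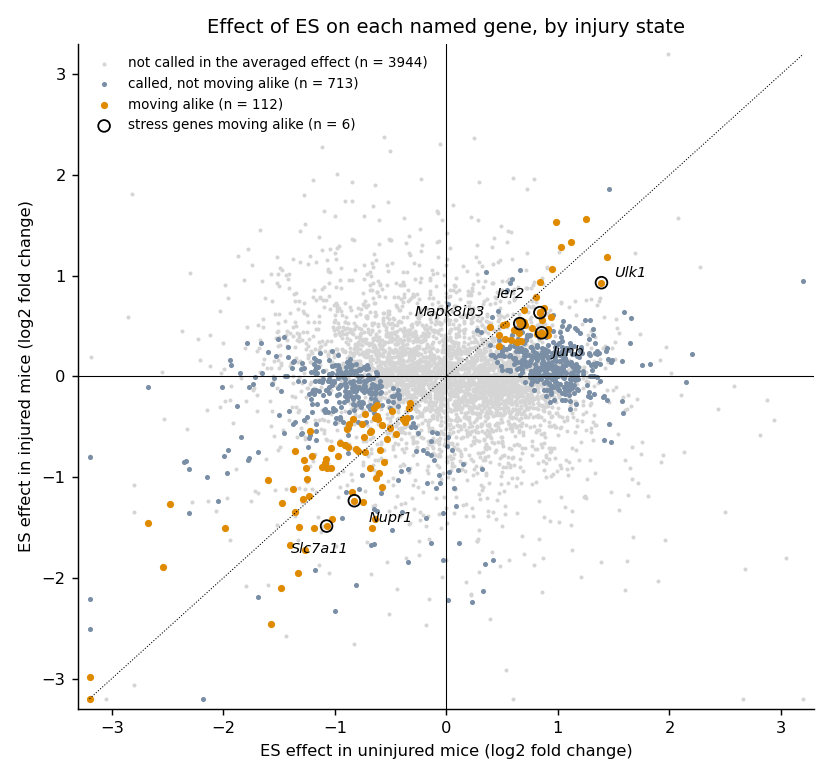
Each point is 1 of 4769 named genes, with the log2 fold change of ES in uninjured mice on the horizontal axis and in injured mice on the vertical axis, and the dotted line marks equal effects. Values beyond 3.2 in either direction, from 13 genes, are drawn at the edge. Most called genes lie along the horizontal axis. The 112 that moved alike, 6 stress genes among them, lie near the dotted line because the rule picked them for the same sign and no detected difference.

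Genes that moved alike numbered 112 of the 4769 (2.35%), 37 higher (0.776%) and 75 lower (1.57%). Within both states, the ES and unstimulated libraries did not overlap for 78 of the 112. For 38 of the 112 the 6 stimulated libraries all lay on one side of the 6 unstimulated ones. Over all named genes that separation occurred for 29 genes that were higher with ES (0.608%) and 65 that were lower (1.36%). Within one state, the injured groups of all named genes were apart with ES higher for 5.22% and lower for 11.5%, and the uninjured groups with ES higher for 25.9% and lower for 22.2%. Without replicate 2 of ES_injury, 226 named genes met the rule, 139 higher and 87 lower.

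Among the 112 tested stress genes, 26 were called in the averaged effect (23.2%, against 17.3% of all named genes), 16 higher and 10 lower. Without replicate 2 of ES_injury 37 were called, 25 higher and 12 lower. The median averaged effect of the 112 was 0.09 on the log2 scale, against 0.00 over all named genes and 0.02 over all tested intervals. In uninjured mice 35 stress genes were called higher and 14 lower (43.8%, against 32.3% of all named genes), with a median of 0.20. In injured mice 0 were called higher and 3 lower, with a median of -0.01, and this 2.68% is close to the 2.1% of all named genes. Of the 112, 6 moved alike (5.36%, against 2.35% of all named genes). The transcriptional regulator Nupr1 and the cystine importer Slc7a11 fell in both states, and the immediate early genes Junb and Ier2, the JNK scaffold Mapk8ip3 and the autophagy kinase Ulk1 rose on average with the same sign in both. With 1 library left out, 4 to 7 stress genes met the rule. Slc7a11 met it in all 12 of these fits, Nupr1 and Ier2 in 11 each, Ulk1 in 10, Junb in 9 and Mapk8ip3 in 7. Genes added in single fits were Nfkb1 without replicate 2 of control, Birc3 without replicate 3 of injury, Sesn1 without replicate 1 of ES_injury, and Birc3 and Hsf1 without replicate 2 of ES_injury. Without that replicate 2, which stood apart from its group, Ulk1 and Mapk8ip3 no longer met the rule, though both stayed called in the averaged effect. It held the highest ES_injury level of both genes.

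Nupr1 and Slc7a11 both belong to the integrated stress response list and are ATF4 target genes. Nupr1 encodes a small nuclear protein induced by cell stress, and Slc7a11 the transporter that brings in cystine for glutathione synthesis. Both genes fell in the 2 states, and the 250 bases before their RefSeq start are shown for that reason, on GRCm38.p6 and the minus strand, at chr7:126625471-126625720 for Nupr1 and chr3:50443614-50443863 for Slc7a11. Capitals mark TGATGCAA on either strand, the letters of a joint C/EBP and ATF site known as an amino acid response element.
Nupr1: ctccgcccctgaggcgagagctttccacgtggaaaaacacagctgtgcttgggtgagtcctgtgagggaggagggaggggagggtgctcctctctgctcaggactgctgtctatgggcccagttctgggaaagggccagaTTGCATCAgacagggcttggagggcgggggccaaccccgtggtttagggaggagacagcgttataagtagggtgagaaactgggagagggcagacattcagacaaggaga
Slc7a11: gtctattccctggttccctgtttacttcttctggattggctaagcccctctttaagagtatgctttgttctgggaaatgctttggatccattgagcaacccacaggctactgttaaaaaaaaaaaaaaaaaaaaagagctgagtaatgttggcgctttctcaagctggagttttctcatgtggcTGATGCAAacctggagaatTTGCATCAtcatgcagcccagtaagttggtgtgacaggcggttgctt
The Slc7a11 window held this motif 2 times, starting 66 and 47 bases before the start, and the Nupr1 window 1 time, 110 bases before it. The RefSeq start of Nupr1 lies 5391 bases inside the longer GENCODE gene. The motif was searched after the genes were known, and 221 of 27025 RefSeq promoter windows of the same length held it (0.818%). Only the exact letters TGATGCAA within 250 bases were searched, so a window without them is not shown to lack such a site. Of the 8 tested genes of the list, 2 held the exact motif, Slc7a11 and Nupr1. Of the 28 listed genes with a window, tested or not, 4 held it, Chac1 and Fgf21 among them. Heat shock, antioxidant, glucocorticoid, cyclic AMP, serum response and AP-1 motifs were searched too and were not found in the 2 windows shown. The windows of Junb, Mapk8ip3 and Ulk1 held none of the motifs, and Ier2 had no window. A match describes letters in a window and says nothing of binding in these ganglia.

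Slc7a11 was at 4.56, 3.54 and 3.66 CPM in ES_injury libraries, against 10.9, 9.24 and 12.9 CPM in injury libraries. In uninjured mice it was at 1.97, 3.64 and 2.23 CPM with ES, against 6.10, 5.01 and 5.39 CPM in control. All 6 stimulated libraries lay below all 6 unstimulated ones. Slc7a11 fell by 1.28 ± 0.21 (SE) on the log2 scale on average (2.43-fold, adjusted p = 0.00115), and by 1.49 ± 0.29 in injured and 1.07 ± 0.30 in uninjured mice. The difference between the 2 states was -0.41, with a 95% interval from -1.31 to 0.48.

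Nupr1 was at 46.3, 31.6 and 24.1 CPM in ES_injury libraries, against 86.7, 75.1 and 77.9 CPM in injury libraries. It was at 22.8, 33.0 and 18.6 CPM in ES_no_injury libraries, against 47.2, 47.8 and 36.5 CPM in control. The groups did not overlap within either state, but ES_injury replicate 1 reached the range of the controls. Nupr1 fell by 1.03 ± 0.16 on average (2.04-fold, adjusted p = 0.000803), by 1.23 ± 0.23 in injured and by 0.83 ± 0.23 in uninjured mice. Its 2 effects differed by -0.41, with a 95% interval from -1.08 to 0.26. Both genes were called in each of the 12 fits that left out 1 library. Nupr1 did not move alike with limma voom, nor Slc7a11 with the GC correction and a replicate block together.

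No other gene of the list moved alike. Of its 8 tested genes, 1 was called higher on average and 3 lower, against 8.83% and 8.47% of all named genes. In injured mice 3 were called lower, against 2.05%. In uninjured mice 2 were called lower and 1 higher, against 13.8% and 18.5%. Psat1 and Slc3a2 were also called on average, and the other 4 tested genes were not called. Psat1, an enzyme of serine synthesis, was lower with ES in injured mice, at 9.25, 15 and 11.8 CPM against 27.7, 19.7 and 28.2 CPM, and overlapped in uninjured mice, at 14.8, 15.7 and 16.9 CPM with ES against 16.1, 19.5 and 17.9 CPM in control. The test of the difference between the states was called for Psat1 (-0.89, 95% interval -1.51 to -0.26, adjusted p = 0.045). Slc3a2, the heavy chain that pairs with Slc7a11 in the cystine transporter, was called higher on average. Its log2 fold change was -0.15 ± 0.16 in injured mice and 0.94 ± 0.16 in uninjured mice, where it was at 167, 182 and 148 CPM with ES against 76.3, 94.8 and 88.5 CPM in control. That difference between the states was called (-1.09, adjusted p = 0.00536), while the averaged call of Slc3a2 was lost in 8 of 12 leave-one-out fits. Asns, asparagine synthetase, at a mean of 607 CPM over all libraries, had an averaged effect of 0.08 and was not called.

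Prdx1, a peroxiredoxin that removes peroxides, was the only called gene of 8 tested in the oxidative stress list, against 17.3% of all named genes. It was at 258, 223 and 266 CPM in ES_injury libraries against 351, 327 and 353 CPM in injury libraries, and at 167, 150 and 121 CPM in ES_no_injury libraries against 308, 277 and 289 CPM in control. All 6 stimulated libraries again lay below all 6 unstimulated ones. Of the 112 tested stress genes this held for 2, Prdx1 and Slc7a11. That share is close to the 1.36% of all named genes (65 of 4769) with the same separation. A further 0.608% of named genes were separated with ES higher. The separation therefore does not set stress genes apart from other named genes. Prdx1 fell by 0.73 ± 0.10 on average (1.66-fold, adjusted p = 0.000339). It is not counted among genes moving alike, because it fell by 0.46 ± 0.14 in injured and 1.00 ± 0.14 in uninjured mice, a difference of 0.54 with a 95% interval from 0.11 to 0.96 (adjusted p = 0.0688). With the GC and length correction Prdx1 did meet the rule. Sod3, the secreted superoxide dismutase, differed between the states. It was at 17.9, 7.18 and 11.8 CPM in ES_injury libraries against 23.2, 25.9 and 18.5 CPM in injury libraries, and at 8.81, 13.3 and 8.84 CPM in ES_no_injury libraries against 4.43, 4.78 and 6.09 CPM in control. The difference of -1.90 was called (adjusted p = 0.00733), and the averaged effect of Sod3 was 0.07 ± 0.21.

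**Figure D2:**
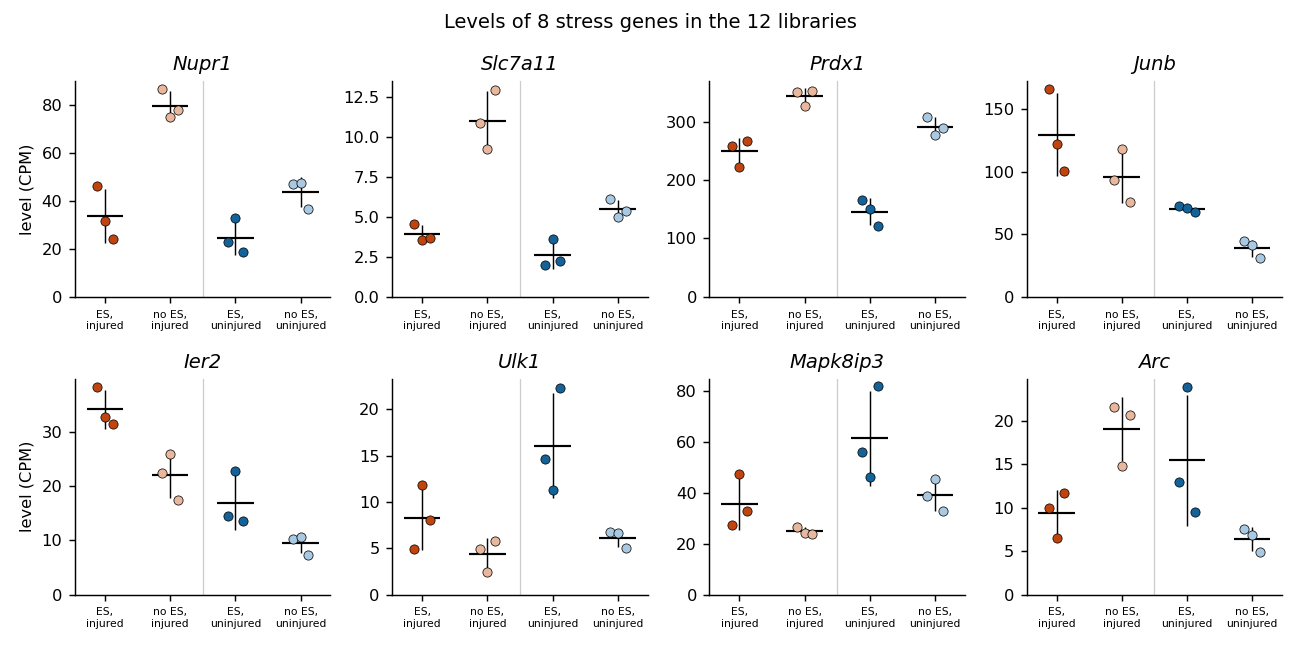
Each panel gives the level of 1 gene in CPM in the 12 libraries, as points for libraries, a bar for the group mean and a line for ± 1 SD (n = 3). In Nupr1, Slc7a11 and Prdx1 the ES groups lie below their unstimulated groups in both states, and in Arc they lie below in injured and above in uninjured mice.

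Of 11 tested immediate early genes, 2 were called, a share close to the 17.3% of all named genes, and both were higher and moved alike. Junb, a subunit of the AP-1 transcription factor, was at 166, 122 and 101 CPM in ES_injury libraries against 93.7, 118 and 76.1 CPM in injury libraries, and at 72.4, 71.1 and 67.6 CPM in ES_no_injury libraries against 44.5, 41.2 and 31.0 CPM in control. The groups overlapped in injured mice and were apart in uninjured mice. Junb rose by 0.64 ± 0.14 on the log2 scale on average (1.56-fold, adjusted p = 0.00584), with 0.43 ± 0.19 in injured and 0.85 ± 0.20 in uninjured mice. Its adjusted p was 0.066 with the GC and length correction. Junb moved alike in 15 of the 21 alternative fits, and not with limma voom or with the GC correction, alone or with the replicate block.

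Ier2, a nuclear immediate early protein, was at 38.3, 32.7 and 31.5 CPM in ES_injury libraries against 22.5, 25.9 and 17.5 CPM in injury libraries, and at 14.5, 22.8 and 13.6 CPM in ES_no_injury libraries against 10.3, 10.7 and 7.38 CPM in control. The groups were apart within both states. Ier2 rose by 0.74 ± 0.16 on average (1.67-fold, adjusted p = 0.00662), and the difference between the states was -0.21, with a 95% interval from -0.88 to 0.47. Ier2 moved alike in 18 of the 21 alternative fits, and not with the GC correction, alone or with the replicate block, where its averaged call held. For both genes, each injured group lay above the uninjured group with the same ES status. The other 9 immediate early genes were not called on average. Arc, which regulates AMPA receptor traffic at synapses, had opposite estimates in the 2 states. It was at 10.0, 6.54 and 11.7 CPM in ES_injury libraries against 21.6, 14.9 and 20.7 CPM in injury libraries, and at 13, 23.9 and 9.47 CPM in ES_no_injury libraries against 7.54, 6.83 and 4.92 CPM in control. The groups were apart in each state in opposite directions, the difference between the states was -2.28 (adjusted p = 0.00452), and the averaged effect of 0.12 ± 0.23 was not called. Fos, the partner of JUN proteins in AP-1, had an averaged effect of 0.44 that was not called.

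Among 9 tested genes of the stress-activated MAP kinase list, 2 were called, against 17.3% of all named genes. Both were scaffolds of the JNK pathway and both were higher. Mapk8ip3, which also links cargo to axonal motors, was at 27.4, 47.4 and 32.8 CPM in ES_injury libraries against 26.7, 24.4 and 23.7 CPM in injury libraries, and at 56.1, 46.2 and 82.1 CPM in ES_no_injury libraries against 38.9, 45.4 and 32.8 CPM in control. The groups were apart within each state by small gaps. Mapk8ip3 rose by 0.59 ± 0.16 on average (1.51-fold, adjusted p = 0.0176) and moved alike, and without replicate 3 of control its adjusted p was 0.0576. Its edgeR adjusted p was 0.0636 with an additive model, 0.0523 with the GC correction and block, and 0.222 without an injury term. Mapk8ip3 moved alike in 14 of the 21 alternative fits, and not with the replicate block, alone or with the GC correction. Mapk8ip2, its paralogue, did not move alike. It was at 337, 277 and 354 CPM in ES_injury libraries against 246, 310 and 291 CPM in injury libraries, which overlapped, and at 490, 450 and 481 CPM in ES_no_injury libraries against 208, 229 and 185 CPM in control. Its difference between the states was -1.0 (adjusted p = 0.00504).

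Of 13 tested autophagy and lysosome genes, 4 were called, all higher, against 17.3% of all named genes called and 8.83% called higher. One gene, Ulk1, moved alike. Ulk1, the kinase that starts autophagosome formation, was at 4.94, 11.8 and 8.03 CPM in ES_injury libraries against 4.88, 2.44 and 5.83 CPM in injury libraries, and at 14.6, 11.2 and 22.3 CPM in ES_no_injury libraries against 6.76, 6.60 and 5.04 CPM in control. Ulk1 rose by 1.16 ± 0.26 on average (2.24-fold, adjusted p = 0.00702). The injured groups overlapped in 1 library, and the estimates were 0.93 ± 0.37 in injured and 1.39 ± 0.35 in uninjured mice. Atg2a, a lipid transfer protein of the autophagosome, Tfe3, a transcription factor of lysosomal genes, and Rptor, the mTORC1 subunit raptor, were called on average and in uninjured mice, and not in injured mice. Rptor was at 171, 107 and 151 CPM in ES_injury libraries against 138, 142 and 146 CPM in injury libraries, and at 145, 146 and 116 CPM in ES_no_injury libraries against 73.4, 80.1 and 79.5 CPM in control. A called difference was found for all 3, at -0.86 for Atg2a, -1.04 for Tfe3 and -0.79 for Rptor.

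The remaining 20 of the 26 called stress genes did not move alike, and for 15 of the 26 the difference between the states was called, against 405 of the 825 called named genes. The larger estimate was in uninjured mice for 22 of the 26, a share close to the 724 of 825 over all called named genes. The averaged call held in all 12 leave-one-out fits for 10 of the 26. With the GC and length correction 14 of the 26 were not called: Atg2a, Birc3, Chordc1, Ikbkg, Junb, Nfkb1, Nr3c1, Phb2, Psat1, Rptor, Slc3a2, Tfe3, Tnfrsf1a and Wfs1. Of 10 tested heat shock and chaperone genes, 1 was called higher, the co-chaperone Stip1, and 1 lower, Chordc1, which binds HSP90. Over all named genes 8.83% were called higher and 8.47% lower. Chordc1 was at 82.0, 78.8 and 84.2 CPM in ES_injury libraries against 69.9, 65.1 and 76.9 CPM in injury libraries, and at 49.1, 61.2 and 55.7 CPM in ES_no_injury libraries against 107, 90.6 and 129 CPM in control. Its groups were apart in opposite directions, with a called difference of 1.19 (adjusted p = 0.00254). Its averaged effect was -0.38 ± 0.10, and -0.13 with the GC and length correction (adjusted p = 0.51). Of 9 tested unfolded protein response genes, Hyou1 and Wfs1 were called higher and Pdia6 lower, against 17.3% of all named genes called. Hyou1, a chaperone of the endoplasmic reticulum, was at 81.3, 71.4 and 84.5 CPM in ES_injury libraries against 77.0, 81.8 and 76.1 CPM in injury libraries, and at 94.9, 90.4 and 95.9 CPM in ES_no_injury libraries against 46.6, 65.5 and 46.1 CPM in control. Of the ER sensors, Atf6 had an averaged effect of -0.10 and Eif2ak3, which encodes PERK, one of -0.04, and neither was called. The chaperone Dnaja3 and the prohibitin Phb2 were the 2 called of 7 tested mitochondrial proteostasis genes, against 17.3% of all named genes. Both were higher on average, with called differences between the states of -0.71 and -1.19.

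In the NF-kappaB list, 2 of 8 tested genes were called higher, Nfkb1 and Tnfrsf1a, and 2 lower, Birc3 and Ikbkg. The shares over all named genes were 8.83% higher and 8.47% lower. The TNF receptor Tnfrsf1a was at 51.2, 32.8 and 56.0 CPM in ES_injury libraries against 51.7, 57.7 and 50.5 CPM in injury libraries, and at 66.0, 63.6 and 52.4 CPM in ES_no_injury libraries against 29.6, 21.6 and 24.1 CPM in control, with a called difference of -1.46 (adjusted p = 0.00297). In the p53 list 1 of 6 was called, Trp53inp1, a p53 target that acts in cell death and autophagy. It fell to 63.8, 67.9 and 76.2 CPM in ES_no_injury libraries, against 186, 207 and 187 CPM in control, while the injured groups overlapped at 97.6, 140 and 95 CPM with ES against 132, 110 and 127 CPM without. In the glucocorticoid list 1 of 6 was called, and as in the p53 list this is close to the 17.3% of all named genes. Nr3c1, the glucocorticoid receptor, was lower in ES_no_injury libraries, at 3.94, 3.42 and 6.93 CPM against 18.1, 14.6 and 12.9 CPM in control, and its estimate in injured mice was 0.04 ± 0.35. Its difference between the states of 1.69 was called (adjusted p = 0.0267), and the call on average was lost in 9 of 12 fits that left out 1 library.

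No gene was called on average in 4 lists, the 3 tested metallothionein and zinc genes, 7 hypoxia genes, 5 stress granule and RNA-binding genes and 6 axon injury genes. Cirbp, a cold-inducible RNA-binding protein of the stress granule list, had opposite estimates. It was at 259, 219 and 206 CPM in ES_injury libraries against 280, 322 and 307 CPM in injury libraries, and at 224, 271 and 206 CPM in ES_no_injury libraries against 151, 151 and 140 CPM in control. For Cirbp the between-state difference of -1.08 was called (adjusted p = 0.00331), while its averaged effect was 0.13 ± 0.10. Altogether 10 stress genes had a called difference between the states without a called averaged effect, Arc, Sod3 and Cirbp among them.

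**Figure D3:**
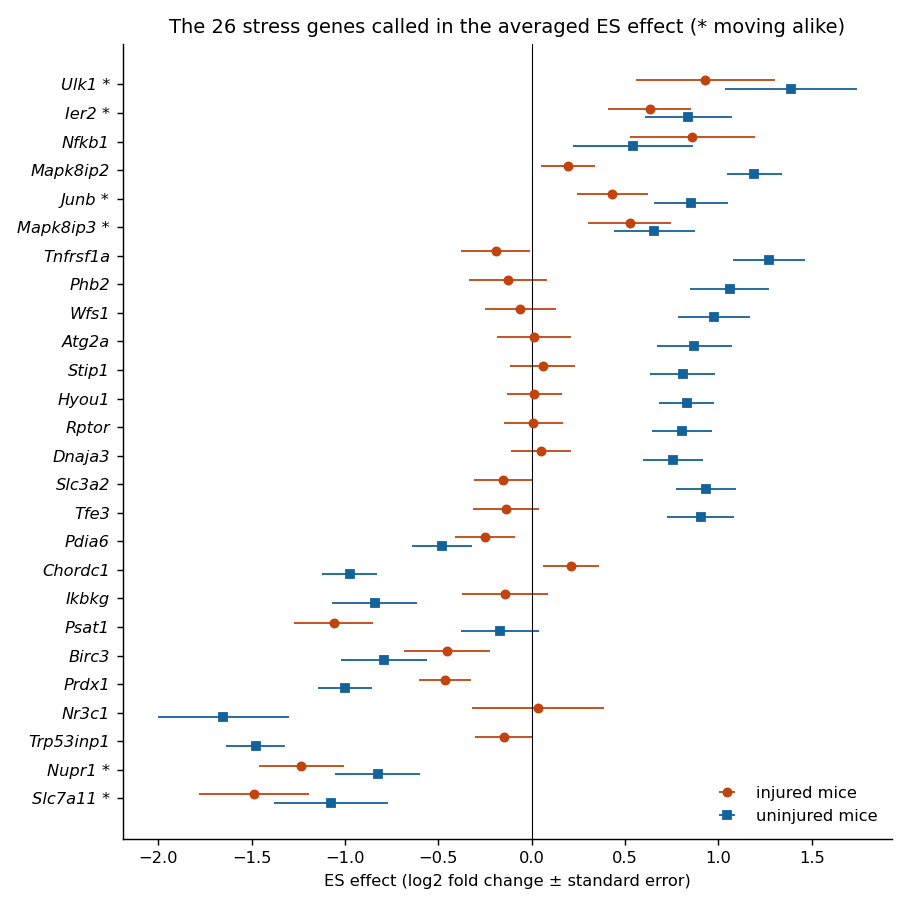
Points give the log2 fold change of ES in injured mice (circles) and in uninjured mice (squares) for the 26 stress genes called in the averaged effect, with standard errors from the fit, and a star marks the 6 that moved alike. For most genes the circle lies near 0 and the square away from it. The starred genes have both on the same side because the rule requires it, and 7 of the 26 have them on opposite sides.

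**Figure D4:**
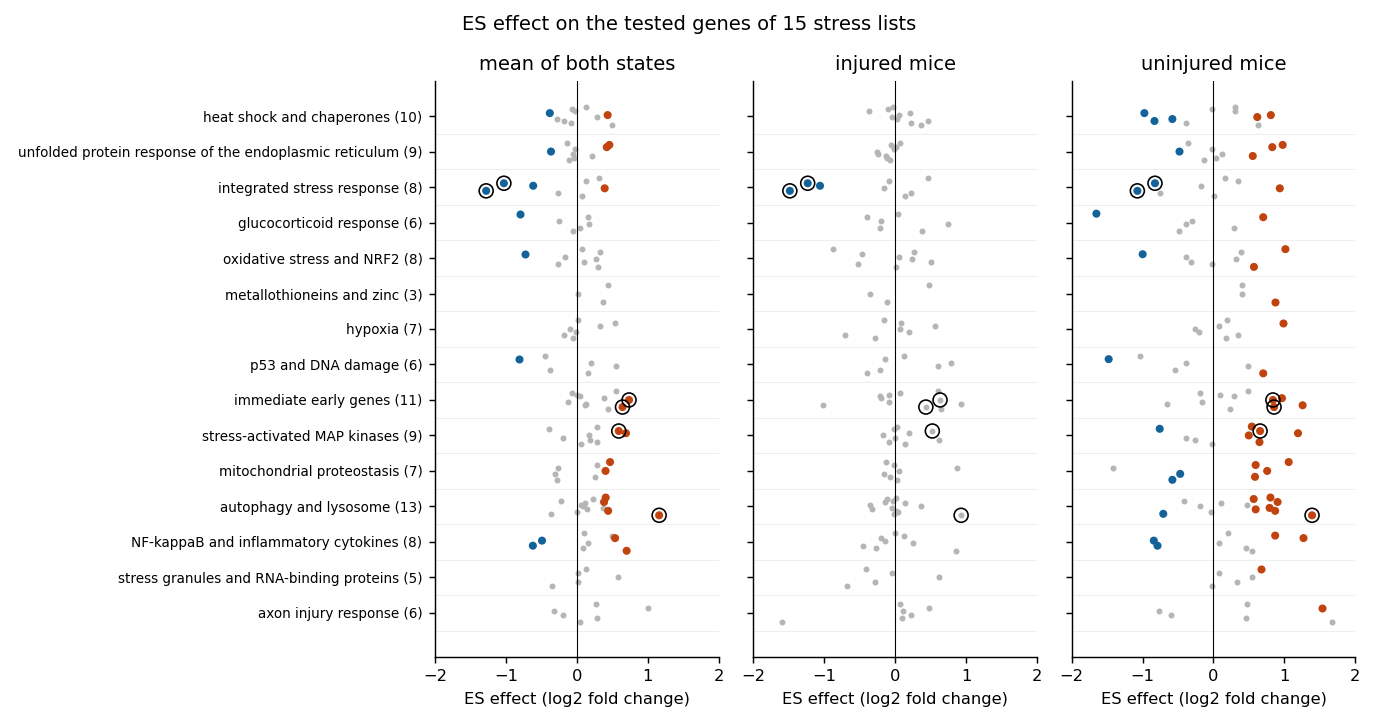
Each point is a tested gene of 1 of 15 stress lists, placed by its log2 fold change of ES on average, in injured mice and in uninjured mice. Red and blue points were called higher and lower in that comparison, circles mark the 6 genes that moved alike, and the number of tested genes stands after each list name. The injured panel holds 3 called points, all in the integrated stress response list and all lower.

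Over all named genes, the 15 genes with the lowest and the 15 with the highest averaged effect were taken among those that moved alike and did not overlap within either state. The lowest included the receptors Cd36 and Colec12. Cd36, a fatty acid and lipoprotein receptor, was at 5.32, 4.61 and 4.61 CPM in ES_injury libraries against 12.1, 16.4 and 12.9 CPM in injury libraries, and at 4.64, 2.65 and 4.22 CPM in ES_no_injury libraries against 11.3, 12.1 and 22.4 CPM in control. It fell by 1.75 ± 0.21 on average (3.35-fold, adjusted p = 0.000169). Colec12, a scavenger receptor of the collectin family, was at 68.6, 89.6 and 63.3 CPM in ES_injury libraries against 166, 160 and 154 CPM in injury libraries, and at 37.8, 50.3 and 48.6 CPM in ES_no_injury libraries against 131, 121 and 102 CPM in control. For Colec12 and Cd36 the 6 stimulated libraries all lay below the 6 unstimulated ones. Colec12 fell by 1.24 ± 0.11 (2.37-fold, adjusted p = 2.02e-05), with a difference between the states of 0.26 and a 95% interval from -0.22 to 0.73.

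The proline transporter Slc6a20a was at 3.68, 15.7 and 8.03 CPM in ES_injury libraries against 44.5, 25.8 and 36.7 CPM in injury libraries, and at 4.41, 7.94 and 7.40 CPM in ES_no_injury libraries against 18.4, 15.1 and 16.5 CPM in control. It fell by 1.64 ± 0.26 on average (adjusted p = 0.000842). The coagulation inhibitor Tfpi fell by 1.36 ± 0.22, the hyaluronan-binding protein gene Itih2 by 1.35 ± 0.22, the peptidase gene Dpp4 by 1.41 ± 0.30 and Ranbp3l by 1.54 ± 0.24, with adjusted p between 0.000803 and 0.00528. The muscle gene Trdn, which encodes triadin, was at 0, 0.429 and 0 CPM in ES_injury libraries against 2.44, 6.27 and 4.03 CPM in injury libraries, and at 0.116, 0 and 0.159 CPM in ES_no_injury libraries against 2.11, 0.341 and 7.96 CPM in control (adjusted p = 0.00101). The other 7 of these 15 were Vnn1, Ppp1r3a, Slc2a12, mt-Nd3, Slc7a11, Mob2 and Tm4sf1. The call of Mob2 was lost in 4 of 12 fits that left out 1 library.

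The highest 15 included the calcium signalling genes Cacna2d3 and Camk1d. Cacna2d3, an auxiliary subunit of voltage-gated calcium channels, was at 17.5, 19.8 and 26.2 CPM in ES_injury libraries against 14.5, 13 and 13.2 CPM in injury libraries, and at 24.8, 20.0 and 20.5 CPM in ES_no_injury libraries against 12.5, 12.3 and 11.7 CPM in control. All 6 stimulated libraries lay above all 6 unstimulated ones, and Cacna2d3 rose by 0.74 ± 0.14 (1.67-fold, adjusted p = 0.00244). Camk1d, a calcium and calmodulin dependent kinase, was at 9.0, 16.7 and 11.3 CPM in ES_injury libraries against 6.32, 5.20 and 7.91 CPM in injury libraries, and at 19.4, 18.3 and 31.4 CPM in ES_no_injury libraries against 12.5, 14.3 and 11.9 CPM in control. Camk1d rose by 0.89 ± 0.19 (1.85-fold, adjusted p = 0.0062), with estimates of 0.94 ± 0.28 in injured and 0.84 ± 0.26 in uninjured mice. The ubiquitin-conjugating enzyme Ube2o rose by 0.80 ± 0.17, the microtubule-associated kinase Dclk2 by 0.67 ± 0.17 and the neuronal pentraxin receptor Nptxr by 0.63 ± 0.13. The transcription factors Stat5a and Onecut1 rose by 1.32 ± 0.35 and 1.26 ± 0.32 at means below 5 CPM in each group, and Gbf1, an activator of ARF GTPases at the Golgi, by 1.41 ± 0.37. The remaining genes of this set were Grid2ip, Paqr9, Tmem94, Plekhd1, Pik3r4, Ier2 and Mapk8ip3, and the call was lost in 7 of 12 leave-one-out fits for Pik3r4, 3 for Grid2ip and 1 for Stat5a.

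Markers of some other cell types also moved with ES. None was called on average among 4 tested markers of endothelium, 4 of pericytes and smooth muscle, 2 of blood and 2 of peptidergic nociceptors. Of 6 tested satellite glia markers, 1 was called higher and 1 lower, against 8.83% and 8.47% of all named genes. Of 9 tested fibroblast and meninges markers, 7 were called lower and 0 higher, against 8.47% lower among all named genes, and 3 moved alike, Slc6a20a, Foxc1 and Fn1, against 2.35%. Their summed level was 8353 to 10083 CPM in ES_injury libraries against 27484 to 27848 CPM in injury libraries, and 4723 to 9223 CPM in ES_no_injury libraries against 9257 to 10103 CPM in control. Dcn, which encodes the matrix proteoglycan decorin, averaged 1840.0 ± 112 CPM in ES_injury and 3224 ± 307 CPM in injury libraries, and 867 ± 63.0 CPM in ES_no_injury and 2952 ± 524 CPM in control libraries (SD, n = 3 each), with no overlap between the 6 stimulated and 6 unstimulated libraries. Of 6 tested macrophage markers, 4 were called lower, against the same 8.47%, and Lyz2 and Aif1 moved alike. The macrophage sum was 99 to 113 CPM in ES_injury against 188 to 223 CPM in injury libraries, and 73.9 to 98.4 CPM in ES_no_injury against 120 to 138 CPM in control. Lyz2, the lysozyme of macrophages, was at 37.1, 34.5 and 32.3 CPM in ES_injury libraries against 62.0, 58.5 and 48.6 CPM in injury libraries, and at 29.1, 26.5 and 24.6 CPM in ES_no_injury libraries against 49.9, 56.3 and 41.3 CPM in control. Slc7a11, Nupr1, Colec12 and Cd36 fell in the same libraries as these sums, and the part of cell type makeup in their change was not tested. In bulk samples fewer cells of a type and less RNA per cell cannot be told apart. Of 4 sensory neuron markers, 3 were called higher, against 8.83% of all named genes, and 0 lower, and the sum was 5531 to 10249 CPM in ES_injury against 6301 to 7817 CPM in injury libraries, and 7491 to 9128 CPM in ES_no_injury against 4069 to 4656 CPM in control. Markers of myelinating Schwann cells and astrocytes were called in opposite directions in the 2 states. Of 6 tested markers of myelinating Schwann cells, 4 were called lower in injured mice and 4 higher in uninjured mice, and their sum was 3414 to 6524 CPM in ES_injury against 6710.3 to 8513 CPM in injury libraries, and 5005 to 5366 CPM in ES_no_injury against 3185 to 4156 CPM in control. Of 4 tested astrocyte markers, 2 were called lower in injured and 3 higher in uninjured mice. Over all named genes, 2.05% were called lower in injured and 18.5% higher in uninjured mice. The oligodendrocyte sum, over 5 genes, was 161 to 345 CPM in ES_injury against 609 to 1099.9 CPM in injury libraries, and 264 to 469 CPM in ES_no_injury against 209 to 336 CPM in control. Arc, Sod3 and Cirbp had opposite estimates in the same comparisons, and the part of glial RNA in them was not tested. Skeletal muscle markers, 2 tested, summed to 1.54 to 18.9 CPM in ES_injury against 42.8 to 121 CPM in injury libraries, and 0.331 to 13 CPM in ES_no_injury against 1.48 to 187 CPM in control, with 187 CPM in control replicate 3. Trdn and Ppp1r3a moved with this sum, whose part in their change was not tested.

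**Figure D5:**
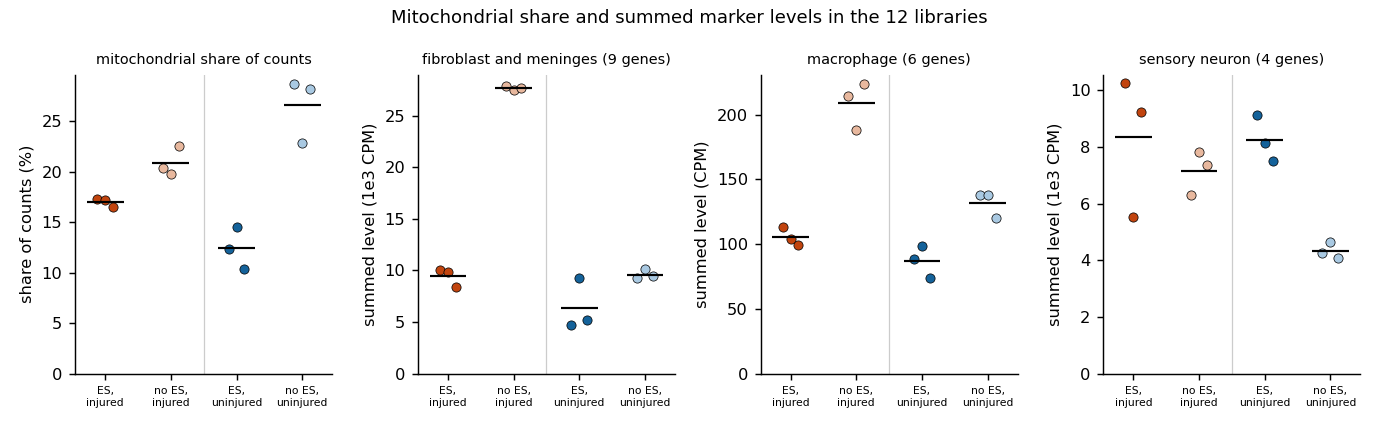
Points are libraries and bars group means of the mitochondrial share of counts in percent and of the summed CPM of 9 fibroblast and meninges, 6 macrophage and 4 sensory neuron markers. The mitochondrial share and the macrophage sum were lower with ES within both states, and the fibroblast and meninges sum of the injury group lay above all other groups.

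Mitochondrially encoded genes fell with ES. All 5 tested were called lower on average (1 in injured and 5 in uninjured mice), against 8.47% of all named genes, and mt-Nd3, mt-Rnr1 and mt-Rnr2 moved alike. The complex I subunit mt-Nd3 was at 58.1, 51.3 and 36.2 CPM in ES_injury libraries against 90.4, 104 and 102 CPM in injury libraries, and at 25.7, 48.6 and 25.4 CPM in ES_no_injury libraries against 119, 86.3 and 96.6 CPM in control. All 6 stimulated libraries lay below all 6 unstimulated ones, and mt-Nd3 fell by 1.31 ± 0.16 (2.48-fold, adjusted p = 0.000169). The complex IV subunit mt-Co2 fell by 1.46 ± 0.21 (adjusted p = 0.000524) and mt-Cytb of complex III by 0.82 ± 0.15 (adjusted p = 0.00264), with differences between the states of 1.01 and 0.70 whose 95% intervals, 0.13 to 1.89 and 0.05 to 1.34, lay above 0. Nuclear genes of oxidative phosphorylation did not fall together, with 3 of 12 called higher and 3 lower, against 8.83% and 8.47% of all named genes.

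The title of the series names KCNN channels, which are calcium-activated potassium channels, and 2 of the 4 were tested. Kcnn4 was at 13.8, 5.79 and 10.3 CPM in ES_injury libraries against 7.65, 7.86 and 6.39 CPM in injury libraries, which overlapped, and at 10.8, 9.15 and 6.05 CPM in ES_no_injury libraries against 3.88, 4.66 and 4.22 CPM in control. Kcnn4 rose by 0.73 ± 0.22 on average (adjusted p = 0.0365), a call lost in 10 of 12 leave-one-out fits. Kcnn3 had an averaged effect of -0.35 ± 0.67 and was not called.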

How the data were processed

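Poly(A) RNA from 12 libraries was sequenced as paired 150 bp reads, per the labels' protocols. The deposited values are whole-number read counts per interval that the authors made with featureCounts 2.0.6 on Ensembl 110 intervals of GRCm39, per the file headers, unstranded and with overlapping features allowed, so overlapping and antisense genes cannot be told apart. Salmon 1.10.2, FastQC and DESeq2 stand in the submitters' processing notes. For the aligner version and alignment build: not given in the sources used here. Counts of 56941 intervals were read, and 9916 were named by position, where an interval covered at least 100 bp of the exons of only 1 GENCODE M21 gene on GRCm38. The file's own gene labels were not used. The 13053 intervals that passed the expression filter of edgeR were tested with edgeR 4.0.16 (TMM scaling, robust quasi-likelihood, 1 mean per group) in R 4.3.3, with Benjamini-Hochberg adjustment over all of them and a threshold of 0.05. The script was tested on simulated data. DESeq2 1.42.0, limma 3.58.1, other scalings and filters, a GC and length correction, a replicate block and leaving out each library were tried. Named genes were the 15 highest and 15 lowest that moved alike without overlap within either state, called stress genes (or up to 3 with the smallest p in lists with none), KCNN genes, up to 4 per other list and the 5 called stress genes with the smallest p for a difference between the states; Arc, Sod3, Cirbp and other single genes outside the rule were chosen after their values were seen. The genes and lists were chosen with earlier results of these data known. Promoter windows come from RefSeq on GRCm38.p6.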

Additional observations from a re-analysis of the deposited data

Results flagged for a closer look

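The effect of ES differed between injured and uninjured mice, by the test of the difference itself, for 2507 of 13053 intervals (edgeR, adjusted p under 0.05). Values here are the log2 effect in injured mice minus that in uninjured mice. The difference was called for 25 of the 112 tested stress genes (22.3%, against 20.4% of all named genes). Listed here are the 15 also called on average, with Arc, Sod3 and Cirbp, which were chosen after their values were seen. The balance of directions among the listed genes is therefore not that of all 25. Among the listed stress genes the difference was below 0 for Arc (-2.28), Sod3 (-1.90), Tnfrsf1a (-1.46), Phb2 (-1.19), Slc3a2 (-1.09), Cirbp (-1.08), Tfe3 (-1.04), Wfs1 (-1.04), Mapk8ip2 (-1.0), Psat1 (-0.89), Atg2a (-0.86), Hyou1 (-0.82), Rptor (-0.79), Stip1 (-0.75) and Dnaja3 (-0.71). It was above 0 for Nr3c1 (1.69), Trp53inp1 (1.33) and Chordc1 (1.19). Among cell type markers it was -2.46 for the oligodendrocyte gene Mog, -2.46 for Cldn11, -1.52 for Slc6a13, -1.50 for Ptgds, -1.16 for Slc17a7, -1.03 for C1qc and -0.91 for Nefm, and 0.96 for Dcn. Among clock and oxidative phosphorylation genes it was 1.81 for Rora, 1.43 for Clock, -1.63 for Arntl, -0.97 for Uqcrc1 and 0.81 for Uqcrc2.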

How the results depend on the processing

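The averaged effect, called for 2017 intervals, was called for 4410 with limma voom, 972 with the GC and length correction, 561 with that correction and the replicate block, 365 with an additive model, 105 as 6 against 6 without an injury term, and 1145 to 3164 when 1 library was left out. In the order of those first 5 settings, called stress genes (26) numbered 47, 13, 8, 8 and 2, and 12 to 37 with 1 library left out. The effect in injured mice (201) was called for 1044 with voom, 368 with DESeq2, 364 without a filter on low counts, 127 with only the 2 groups compared, 87 with the GC correction and block, and 5 to 338 with 1 library left out, 5 being without ES_injury replicate 3. The effect in uninjured mice (3896) was called for 2185 with the GC correction and 1584 with the block added, and 2640 to 4593 with 1 library left out. The difference between the states (2507) was called for 4411 with voom, 763 and 422 with the GC correction without and with the block, and 1126 to 3407 with 1 library left out. Genes moving alike (112) numbered 259 with voom and 81 to 226 with 1 library left out. Stress genes moving alike (6), an alternative chosen after seeing the data, numbered 2 with the GC correction and block and 4 to 7 with 1 library left out. Libraries that moved the averaged count by over 1.5 times were control replicates 1 (1300) and 3 (1247), injury replicate 1 (1242), ES_no_injury replicate 1 (1240) and ES_injury replicates 2 and 3. Upper quartile scaling gave 1674 higher and 2088 lower in uninjured mice, and 1396 and 852 for the difference between the states. Kcnn3, not called, was at 0.20 with voom and -0.65 to 0.24 with 1 library left out, above 0 without injury replicate 1. The cause of these shifts was not tested.

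With the replicate number as a block, 1525 intervals were called on average, 157 in injured and 3542 in uninjured mice, 1915 for the difference, 100 genes moved alike and 19 stress genes were called. No label says whether the numbers pair the libraries. Deviations were correlated above 0.1 in 1 of 18 same-numbered pairs, and 3 of 12 libraries correlated best with their own number. With 3 libraries per group, these correlations cannot show whether the libraries were paired.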

Other observations

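Clock genes, which keep daily time in cells, did not move alike. Csnk1d, a kinase of the clock, rose by 0.70 ± 0.14 on average, and the activator Clock fell by 0.71 ± 0.19, with 0.00 in injured and -1.43 in uninjured mice (edgeR). The difference between the states was called for 4 of 6 tested clock genes, against 20.4% of all named genes. Rps27a, a ribosomal protein fused to ubiquitin, fell by 1.05 ± 0.16 and moved alike, as 1 of 3 tested ribosomal protein genes.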
